A study of Homo sapiens with 12 samples.

Results

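EC359, a small molecule that inhibits the leukemia inhibitory factor receptor (LIFR), was added to trametinib, an inhibitor of MEK1 and MEK2, and RNA of the combination group was compared with RNA of the trametinib group. These groups hold 6 of the 12 libraries in the series, 3 for each treatment. All libraries came from OVCAR8, an established human ovarian cancer (OCa) cell line, grown in RPMI medium and treated for 7 h. The trametinib group received 100 nM trametinib, and the combination group received 100 nM trametinib with 150 nM EC359. The other 6 libraries, 3 with vehicle (control) and 3 with 150 nM EC359 alone, show the same addition of EC359 without trametinib. The labels number the replicates but do not say that they were separate cultures, so p-values measure only the spread between these samples, which may be technical.

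LIFR pairs with gp130, the product of IL6ST, when it binds the cytokine LIF, and the pair signals through JAK kinases to STAT3 and to the MAP kinases. The same gp130 chain serves IL6, IL11 and oncostatin M. Trametinib acts below Ras: MEK phosphorylates ERK, and ERK drives transcription of growth genes together with genes such as DUSP6 and SPRY4, whose products switch the pathway off again. Transcripts of these feedback genes are therefore used as a readout of ERK activity.

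The libraries held 24790392 to 32467283 counted reads each, and 14865 of 26485 genes had enough counts to be tested. Expression is given as CPM, the count relative to library size after TMM scaling, which compares libraries for 1 gene and not genes with each other. Pearson's r of log2 CPM, taken across genes and so not over independent replicates, was 0.993 to 0.994 within conditions and 0.965 to 0.967 between combination and trametinib libraries. Of 10 markers listed for OCa cells, PAX8, KRT7, KRT8, KRT18, CDH2 and VIM were well expressed, of which CDH2 and VIM are not specific to epithelium. EPCAM and WT1 had means of 11.7 and 3.26 CPM with trametinib, and MUC16 and CDH1 were near 0, with means of 0.0127 and 0.341 CPM. The leukocyte markers PTPRC and CD3E and the fibroblast marker DCN had no read in any library. The summed level of the 6 fibroblast markers was 538 to 546 CPM with trametinib and 341 to 361 CPM in the combination, nearly all of it from COL1A1, which fell by 0.68 on the log2 scale. The part of COL1A1 in the other results was not tested.

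Compared to trametinib alone, the combination group showed upregulation of 909 genes and downregulation of 814 by 2-fold or more, which is 6.12% and 5.48% of the genes tested. Calls came from the quasi-likelihood test of edgeR and required an adjusted p under 0.05 after Benjamini-Hochberg correction. Without the fold limit, 35.3% of genes were higher and 32.9% lower. Among the upregulated genes, 208 changed by more than 4-fold and 64 by more than 8-fold, against 109 and 15 among the downregulated genes. With library totals alone as the scale, the median of all genes moved to -0.16 on the log2 scale, and the calls became 714 higher and 1136 lower. In these bulk samples, fewer cells of a type and less RNA per cell cannot be told apart.

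The largest rises were in chemokines, immediate early transcription factors, heat shock proteins and the heme-degrading enzyme heme oxygenase. CXCL8, a chemokine that attracts neutrophils and lies at chr4:73740506-73743716 in hg38, measured 1.47, 1.18 and 1.46 CPM with trametinib and 103, 107 and 106 CPM in the combination group. The log2 fold change was 6.25 (SE 0.07, edgeR adjusted p = 4.5e-57), which is 76.2-fold, the largest by the naming rule used here. SE throughout is the size of the log2 change divided by the square root of the test's F statistic. It can be too small for large changes. For CXCL8 it was 0.05 with EC359 against control, but 0.16 for the interaction, which is built from both comparisons. FOS, a subunit of the AP-1 transcription factor, went from 0.343, 0.114 and 0.357 CPM to 19.2, 18.6 and 18.0 CPM. The libraries of these genes were far apart, although the FOS values with trametinib rest on few reads, since 3 reads were worth 0.0936 to 0.114 CPM there. HMOX1 (chr22:35381067-35394214), which encodes the inducible heme oxygenase, went from 28.7, 30.6 and 30.5 CPM to 811, 842 and 854 CPM (log2 fold change 4.81, SE 0.03, edgeR adjusted p = 6.1e-68). ATF3, a stress-induced transcription factor, went from 8.46, 7.25 and 8.40 CPM to 183, 185 and 179.7 CPM (log2 fold change 4.50, SE 0.05, edgeR adjusted p = 4.5e-57). Other members of the 12 largest rises were CXCL2, FOSB, HSPA6, MAFF, HSPA1A, HSPA1B and YPEL2, with log2 fold changes between 3.71 and 4.91. As the naming rule required, all combination libraries of these 11 genes lay above all trametinib libraries, and the replicates lay close together.

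RGL2, the remaining gene of the 12, did not behave alike in its libraries. It measured 0.843, 1.52 and 1.07 CPM with trametinib and 2.08, 20.6 and 22.6 CPM in the combination, and the call was lost when any library except replicate 1 of the combination was left out (log2 fold change 3.34 to 3.98, largest edgeR adjusted p = 0.0718). RGL2 lies on 5 contigs of the annotation (the primary chromosome 6 and alternate copies of it), so that its reads were divided among copies by the counting. HSPA1A and HSPA1B also lie on 5 contigs each and are near-identical to each other, and the split of reads between them is uncertain. Of the genes tested, 432 lie on several contigs, and 56 of these 432 were upregulated and 19 downregulated. Over all genes tested the shares were 6.12% and 5.48%.

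**Figure D1:**
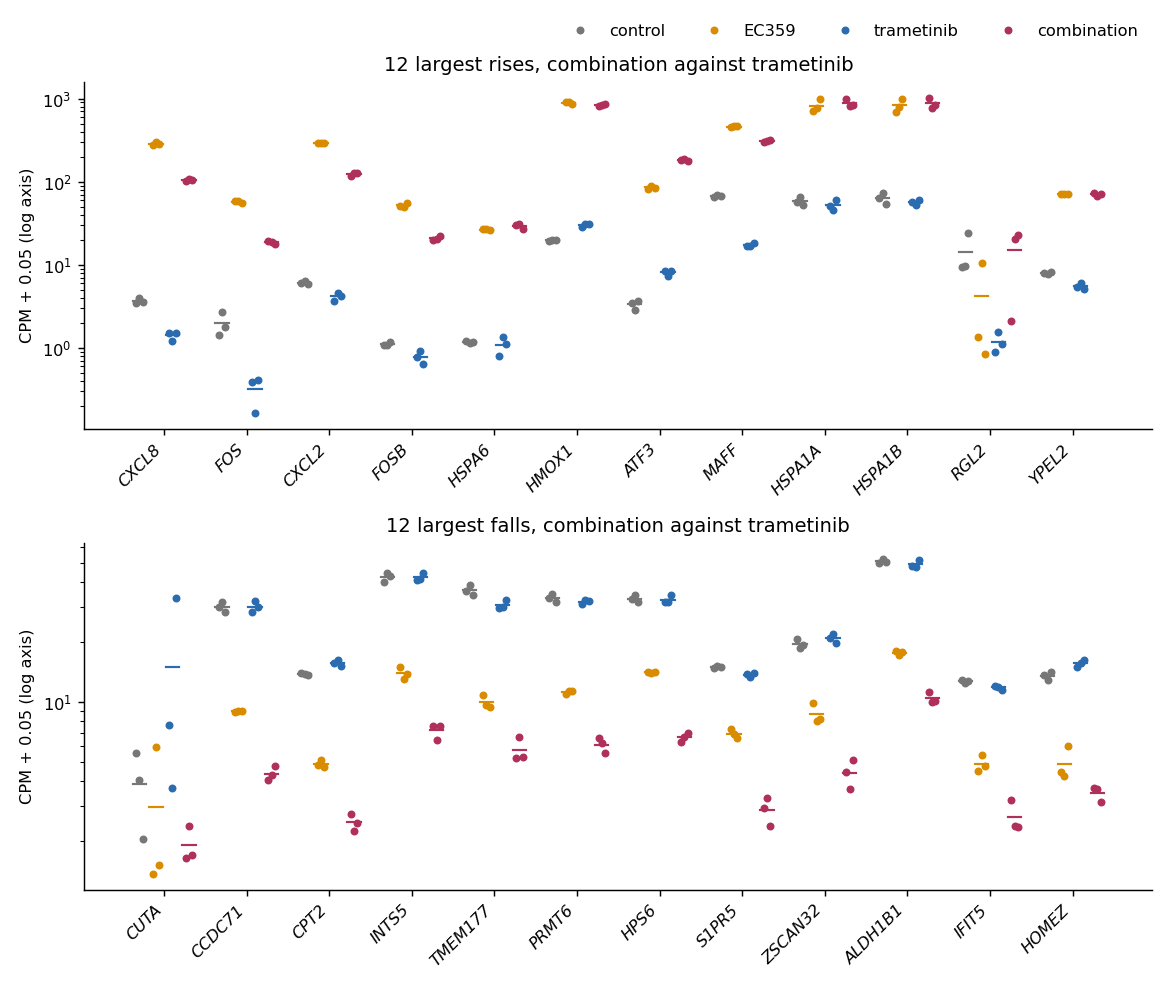
Levels of the 12 genes with the largest rises (top) and the 12 with the largest falls (bottom) in the combination against trametinib, in all 12 libraries. Each point is 1 library (CPM plus 0.05, log axis), each bar the mean of 3 libraries, and colors mark the condition. Combination and trametinib libraries are apart for every gene, as the naming rule required, with the widest scatter in RGL2 and CUTA.

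The largest falls were smaller and lay in genes of varied function. CCDC71 (chr3:49162535-49166352), a gene for a coiled-coil protein, fell from 28.4, 32.0 and 29.8 CPM with trametinib to 3.99, 4.21 and 4.70 CPM in the combination (log2 fold change -2.80, SE 0.08, edgeR adjusted p = 2.9e-37). CPT2, the inner mitochondrial enzyme of fatty acid import, fell from 15.6, 16.1 and 15.0 CPM to 2.67, 2.20 and 2.40 CPM, a log2 fold change of -2.68. INTS5, a subunit of the Integrator complex that processes RNA polymerase II transcripts, fell from 41.2, 41.7 and 44.3 CPM to 7.54, 6.41 and 7.55 CPM. As the naming rule required, the libraries of these genes did not overlap. The same held for TMEM177, PRMT6, HPS6, S1PR5, ZSCAN32, ALDH1B1, IFIT5 and HOMEZ, whose log2 fold changes lay between -2.43 and -2.18. PRMT6 is an arginine methyltransferase of histones and S1PR5 is a receptor for sphingosine 1-phosphate. CUTA headed the falls with a log2 fold change of -3.01 (edgeR adjusted p = 0.0218), but its trametinib libraries ranged from 3.65 to 33.4 CPM and it lies on 2 contigs. Without trametinib replicate 3 its log2 fold change was -1.61 with an edgeR adjusted p = 0.0949.

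Genes with few exons were called more often in both directions. Above a mean level of 4 CPM, single-exon genes numbered 291 and 14.1% of them were downregulated. The share was 10.2% for 371 genes made of 2 exons and 0.354% for 1693 genes made of more than 20. For upregulated genes the shares were 11%, 9.70% and 2.66%. With EC359 against control, 8.59% of single-exon genes were downregulated. These shares are a description of the annotation's merged exons, without a test.

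The addition of EC359 was then compared with its addition to vehicle, which involves no library of the first comparison. EC359 against control gave 623 upregulated genes (4.19%) and 415 downregulated genes (2.79%). Across the genes tested, which are not independent replicates, the log2 fold changes with and without trametinib correlated with Pearson's r of 0.790, and of 0.866 over the 11129 genes with a mean of at least 4 CPM. Of the 909 genes upregulated with trametinib present, 468 (51.5%) were also upregulated at least 2-fold without it, which is 75.1% of the EC359 list. A further part passed the adjusted p without reaching 2-fold, so that 690 of the 909 were higher (background 30.8%), 215 did not pass and 4 were lower (background 30.3%) with EC359 against control. Of the 814 downregulated genes, 314 (38.6%) were shared, which is 75.7% of the EC359 list of 415. The median log2 fold change of the upregulated genes was 1.5 with trametinib and 1.04 without it, and that of the downregulated genes was -1.35 and -0.89. The genes were chosen on the first of each pair of values, so only the second describes them independently.

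Whether EC359 acted differently in the presence of trametinib was tested directly, as the interaction in the same fit. At an adjusted p under 0.05 the effect was higher with trametinib for 2145 genes (14.4%) and lower for 2361 (15.9%). Among the 909 upregulated genes, 364 (40.0%) rose by more with trametinib, 78 rose by less and 467 had no interaction past the threshold. Among the 814 downregulated genes, 316 (38.8%) fell by more with trametinib, 3 had an interaction of the other sign and 495 had none past the threshold. The contrast of combination and trametinib is part of the interaction, so these shares are a description.

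Genes with large interactions had different functions. ANKRD1, a YAP target gene that encodes a nuclear ankyrin repeat protein, measured 125, 118 and 122 CPM with trametinib and 723, 736 and 727 CPM in the combination. It rose by 2.58 on the log2 scale with trametinib and by 0.88 without it, with an interaction of 1.70 (SE 0.03, edgeR adjusted p = 4.2e-42). MAFF, a small MAF transcription factor, rose by 4.16 and 2.79, and KLF4 by 3.54 and 2.24. In the other direction, RRAD, a Ras-related GTPase, rose by 1.02 with trametinib and by 2.41 without it, an interaction of -1.40. SLFN11, a helicase that blocks stressed replication forks, measured 19.9, 20.2 and 18.2 CPM with trametinib and 9.42, 9.17 and 8.83 CPM in the combination, a log2 fold change of -1.09, while without trametinib it was at 0.10 (edgeR adjusted p = 0.215). Of the 12 largest falls, CCDC71, CPT2, HPS6, S1PR5 and ZSCAN32 had interactions between -1.18 and -1.05, which is a description, since these falls were chosen on a contrast that is part of the interaction.

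**Figure D2:**
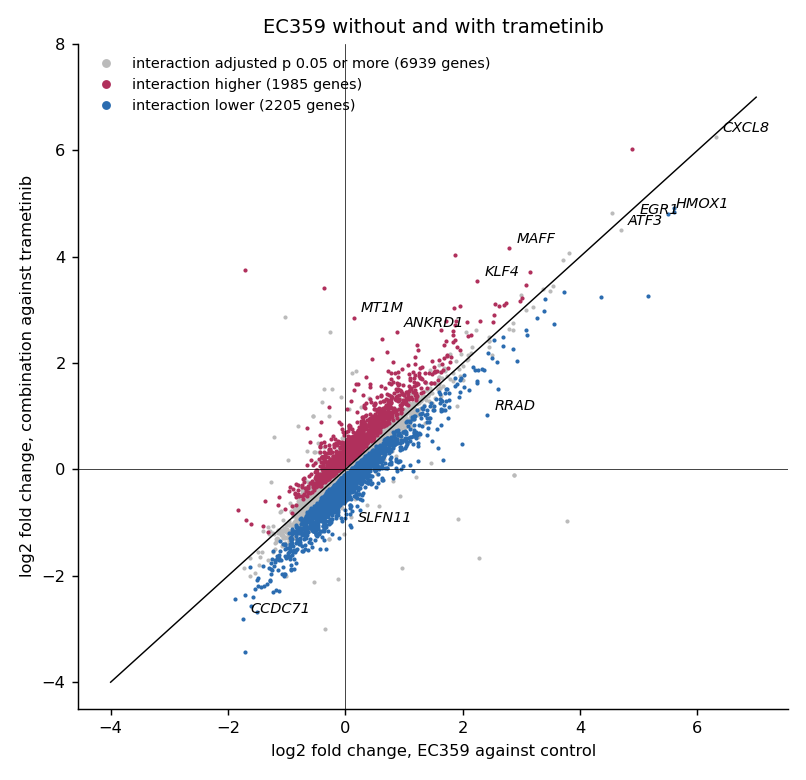
Log2 fold change of each gene on adding EC359 to vehicle (horizontal axis) and to trametinib (vertical axis), for the 11129 genes with a mean of at least 4 CPM. The line marks equal change, red and blue points are the 1985 and 2205 plotted genes with an interaction at an adjusted p under 0.05, and most points lie along the line.

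Genes of the pathway that EC359 is aimed at were mostly higher, not lower, in the combination group. Of 24 members of the LIF and IL6 family list 21 were tested, of which 14 were upregulated, 3 downregulated and 4 did not pass, at an adjusted p under 0.05 and no fold limit (background 35.3% and 32.9%). Their median log2 fold change was 0.24, against 0.00 over all genes tested and 0.40 for the same members with EC359 against control. LIF, the ligand, measured 18.0, 20.2 and 20.6 CPM with trametinib and 44.2, 43.7 and 45 CPM in the combination (log2 fold change 1.18, SE 0.05, edgeR adjusted p = 2.3e-28), and it rose more without trametinib, by 1.77. IL11 and IL6, other ligands of gp130, rose by 2.64 and 2.32, and CLCF1, a ligand of the ciliary neurotrophic factor receptor, by 1.36. No read of OSM, the oncostatin M gene, was found in any library.

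The receptor chains changed little by comparison. LIFR measured 18.8, 17.4 and 17.8 CPM with trametinib and 20.8, 19.2 and 20.7 CPM in the combination. These groups did not overlap, but the log2 fold change was 0.17 (SE 0.07, edgeR adjusted p = 0.0243) and the call was lost in DESeq2, with library totals as the scale and without 4 of the 6 libraries. IL6ST rose by 0.42 (SE 0.03, edgeR adjusted p = 2.8e-18) and OSMR, the oncostatin M receptor, by 0.72. STAT3 had a log2 fold change of 0.06 (edgeR adjusted p = 0.124), which turned to -0.11 with library totals as the scale. Among feedback genes, SOCS3, an inhibitor of gp130 signaling, rose from 13.8, 14.4 and 15.9 CPM to 50.6, 48.5 and 48.4 CPM, a log2 fold change of 1.74. SOCS2 fell by 0.39 and PIAS3, which binds STAT3, by 0.36. MAP2K1 and MAP2K2, which encode the targets of trametinib, rose by 0.85 and 0.31.

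ERK output genes, which trametinib had lowered as a group, were partly higher again in the combination. All 20 members were tested, of which 17 rose (85.0%, background 35.3%), 2 fell and 1 did not pass, and 10 rose at least 2-fold. The median log2 fold change was 1.09, against -2.39 for trametinib against control, a comparison that shares the trametinib libraries, and 0.78 for EC359 against control. DUSP6 (chr12:89347825-89352859), the phosphatase that inactivates ERK, measured 0.0312, 0.19 and 0.0649 CPM with trametinib and 1.52, 1.94 and 1.16 CPM in the combination. Control libraries held 3.75 to 4.50 CPM and EC359 libraries 14.6 to 15.1 CPM of it, and all combination libraries lay below all control libraries. The trametinib values of DUSP6 are at or near the worth of 3 reads, and its interaction of 2.17 (edgeR adjusted p = 5.7e-06) rests on them. DUSP5, another ERK phosphatase, went from 10.5, 10.7 and 10.9 CPM to 55, 53 and 55.5 CPM, against 56.2 to 59.2 CPM in control. EGR1, a zinc finger transcription factor, went from 0.406, 0.418 and 0.162 CPM to 8.54, 7.53 and 9.54 CPM. These lie above the control mean of 6.90 CPM and overlap the control libraries, which held 6.07 to 7.98 CPM.

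Further members differed in how far they moved. SPRY4, which inhibits receptor signaling to Ras, went from 0.281, 0.266 and 0.195 CPM to 1.72, 1.30 and 1.5 CPM, a log2 fold change of 2.59, where control libraries held 19.1 to 20.3 CPM. FOSL1, an AP-1 subunit, measured 102, 106 and 106 CPM with trametinib and 105, 109 and 108 CPM in the combination, which overlap. Its log2 fold change of 0.03 (edgeR adjusted p = 0.287) contrasts with 0.87 for EC359 against control, and the interaction was -0.83 (SE 0.04, edgeR adjusted p = 1.5e-26). CCND1, the gene of cyclin D1, fell further, from 188, 181 and 182 CPM to 135, 135 and 136 CPM (log2 fold change -0.44), and MYEOV fell by 0.50. Across all genes, trametinib alone had lowered 142 by at least 2-fold (0.955%) and raised 71 (0.478%). On adding EC359, 79 of the 142 rose and 18 fell (edgeR adjusted p under 0.05), with a median of 0.52. Of the 71 raised genes 21 were higher and 18 lower, with a median of 0.05. Over all genes tested, 35.3% were higher and 32.9% lower at the same adjusted p. These comparisons share the trametinib libraries, and their values are given side by side only.

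**Figure D3:**
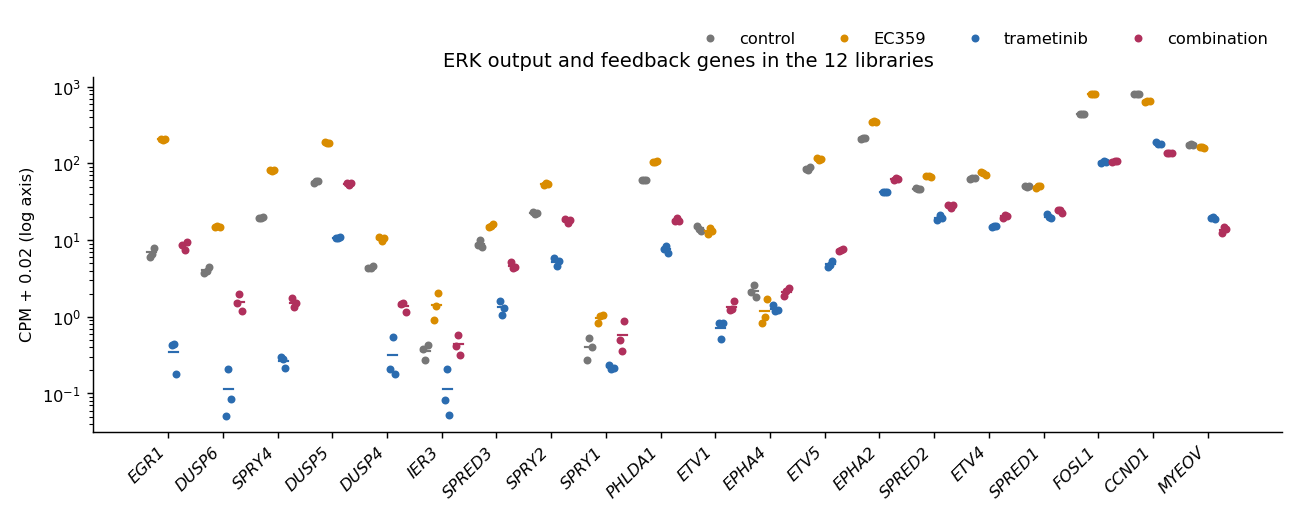
Levels of 20 ERK output and feedback genes in all 12 libraries, ordered by their change in the combination against trametinib. Each point is 1 library (CPM plus 0.02, log axis) and each bar the mean of 3 libraries. DUSP5 and EGR1 in the combination lie near control, DUSP6 and SPRY4 lie between trametinib and control, and FOSL1, CCND1 and MYEOV lie at or below trametinib.

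Immediate early genes, which are transcribed within minutes of a stimulus without new protein synthesis, had the largest median of the lists. All 28 members were tested, of which 24 rose (85.7%, background 35.3%), 21 of them at least 2-fold (background 6.12%), and 1 fell, with a median log2 fold change of 2.18 against 2.46 with EC359 alone. The member that fell was SRF, a transcription factor that itself binds promoters of such genes, by 0.43. Of 15 KLF transcription factors 12 rose (80.0%, background 35.3%) with a median of 1.02, led by KLF4 (3.54) and KLF2 (3.16, from 49.0, 47.4 and 48.1 CPM to 411, 423 and 462 CPM). KLF14 fell by 1.0 at a level of 0.522 to 1.56 CPM.

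Chemokines, cytokines and NF-kappaB feedback genes rose with them. Of 17 chemokine and cytokine genes tested, 14 rose (82.4%, background 35.3%), 10 at least 2-fold, with a median of 1.67, while IL1B and CCL28 fell by 0.98 and 0.29. CXCL2, a neutrophil chemokine, went from 3.59, 4.60 and 4.19 CPM to 118, 126 and 127 CPM. Of 25 NF-kappaB genes 19 rose (76.0%) and 2 fell, with a median of 0.53 against 0.90 with EC359 alone, and 15 of the 25 had a lower effect with trametinib by the interaction (background 15.9%). TNFAIP3, which encodes the inhibitory protein A20, rose by 3.20 and NFKBIZ by 2.75. The 300-base promoter window of CXCL8 in RefSeq (build GRCh38.p14) holds the AP-1 element TGAGTCA, searched on both strands, which 2.99% of the 11387 tested genes with a window, 6.43% of the upregulated and 2.36% of the downregulated genes hold. The 250 bases before the RefSeq start of CXCL8, chr4:73740319-73740568 (plus strand), are printed to show where the element, in capitals, lies in the promoter of the gene with the largest rise.
CXCL8: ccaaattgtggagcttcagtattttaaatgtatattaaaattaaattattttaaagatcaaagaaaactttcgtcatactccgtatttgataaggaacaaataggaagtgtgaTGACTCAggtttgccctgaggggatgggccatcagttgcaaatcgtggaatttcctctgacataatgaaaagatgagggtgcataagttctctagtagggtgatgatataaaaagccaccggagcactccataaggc
In it the element begins 137 bases before the start, on the reverse strand. A match is a description of letters and not evidence that a factor was bound.

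Heat shock proteins, the chaperones that refold damaged proteins in the cytosol, rose nearly throughout. Of 35 members 32 were tested, of which 30 were higher (93.8%, background 35.3%), none was lower and 2 did not pass by edgeR's test (also 0 lower at an unadjusted p under 0.05 and by DESeq2), and 8 rose at least 2-fold. With library totals as the scale 3 members were lower. The median was 0.57 against 0.41 with EC359 alone, and 17 of the 32 had a higher effect with trametinib by the interaction (background 14.4%) and 2 a lower one. Their summed level was 20883 to 21141 CPM with trametinib and 32384 to 33221 CPM in the combination. HSPA6, an HSP70 chaperone that is nearly silent without stress, went from 0.749, 1.29 and 1.07 CPM to 29.9, 30.6 and 27.1 CPM (log2 fold change 4.83, SE 0.11, edgeR adjusted p = 5.3e-42). HSPA1A went from 51.4, 45.6 and 60.5 CPM to 993, 808 and 845 CPM, with the uncertainty of its copies given above.

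HSF1, the heat shock factor, binds arrays of the element nGAAn in alternating orientation, and its core was searched as GAANNTTC or TTCNNGAA, forms which can overlap, on both strands. It lay in the window of 9 of 28 heat shock genes (32.1%), against 10.1% of all genes tested and 10.1% of the upregulated genes. HSPA6 (chr1:161524290-161524539 (plus strand)) held 3 matches, of which 2 overlap, and HSPA1A (chr6:31815293-31815542 (plus strand)) held 1. Their 250 bases before the RefSeq start show the cores in capitals.
HSPA6: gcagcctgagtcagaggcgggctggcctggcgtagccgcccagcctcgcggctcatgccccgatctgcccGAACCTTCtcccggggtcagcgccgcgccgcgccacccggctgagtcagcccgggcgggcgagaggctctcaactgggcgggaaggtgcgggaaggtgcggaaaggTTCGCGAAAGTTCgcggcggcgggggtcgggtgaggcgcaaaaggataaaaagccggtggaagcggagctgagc
HSPA1A: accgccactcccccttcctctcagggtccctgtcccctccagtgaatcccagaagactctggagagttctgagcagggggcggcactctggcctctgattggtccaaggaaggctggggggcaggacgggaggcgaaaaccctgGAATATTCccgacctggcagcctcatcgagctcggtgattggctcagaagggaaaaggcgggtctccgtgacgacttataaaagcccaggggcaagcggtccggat
The matches of HSPA6 begin 180, 74 and 69 bases before the start and that of HSPA1A 106 bases before it. No match in a window says only that these letters are not in it.

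Metallothioneins, small proteins that bind zinc and copper, and the zinc exporter SLC30A1 had the largest difference in median between EC359 with and without trametinib among the gene lists, lists of cell type markers aside. Of 14 members 10 were tested, since MT1B, MT1G, MT3 and MT4 had too few reads, and 9 of the 10 rose (90.0%, background 35.3%) and 1 fell. The median log2 fold change was 1.78 in the combination against trametinib and 0.37 with EC359 against control, and 7 of the 10 had a higher effect with trametinib by the interaction (background 14.4%), with 0 lower by edgeR, 0 at an unadjusted p under 0.05 and 0 by DESeq2. MT1X (chr16:56682470-56684196) measured 26.7, 25.7 and 26.0 CPM with trametinib and 105, 111 and 114 CPM in the combination (log2 fold change 2.07, SE 0.04, edgeR adjusted p = 6.8e-43). The same gene went from 31.0, 34.9 and 33.8 CPM in control to 43.3, 47.3 and 46.1 CPM with EC359 alone, a log2 fold change of 0.46, and the interaction was 1.62 (SE 0.06, edgeR adjusted p = 5.9e-28). The combination libraries lay above those of every other condition.

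MT1M went from 2.59, 2.17 and 3.24 CPM to 19, 18.6 and 20.6 CPM, a log2 fold change of 2.85 (SE 0.13), against 0.14 (edgeR adjusted p = 0.392) with EC359 alone, and its interaction was 2.71 (SE 0.19, edgeR adjusted p = 1.6e-16). MT1E rose by 1.49 and MT2A by 0.71, with interactions of 1.35 and 0.42. SLC30A1, which moves zinc out of the cytosol, went from 7.58, 9.65 and 8.95 CPM to 57.8, 60.4 and 62.6 CPM (log2 fold change 2.79), and from 8.25, 8.31 and 8.54 CPM to 30.4, 31.3 and 31.6 CPM with EC359 alone. MTF1, the metal-sensing transcription factor of these genes, rose by 0.46 and had no interaction past the threshold (-0.16, edgeR adjusted p = 0.132). The member that fell was MT1L, by 0.20, with overlapping libraries. The metallothionein genes lie in 1 cluster on chromosome 16 and are similar in sequence, and reads that fit several of them were divided.

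MTF1 binds metal response elements with the core TGCACNC or TGCGCNC, searched on both strands. The core is short and lay in 39.0% of all windows, but 1416 of the 11387 windows held at least 2 matches. Of the 5 list members with a window 4 held the core, each at least 2 times. MT1X (chr16:56682220-56682469 (plus strand)), MT2A (chr16:56608334-56608583 (plus strand)) and SLC30A1 (chr1:211579162-211579411 (minus strand)) are printed with their cores in capitals, to show where they lie upstream of genes that rose in the combination.
MT1X: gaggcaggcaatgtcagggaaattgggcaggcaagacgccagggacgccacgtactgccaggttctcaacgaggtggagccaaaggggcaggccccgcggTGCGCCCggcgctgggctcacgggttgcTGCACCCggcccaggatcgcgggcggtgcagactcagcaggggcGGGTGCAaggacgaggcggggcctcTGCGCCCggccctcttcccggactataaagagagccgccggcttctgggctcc
MT2A: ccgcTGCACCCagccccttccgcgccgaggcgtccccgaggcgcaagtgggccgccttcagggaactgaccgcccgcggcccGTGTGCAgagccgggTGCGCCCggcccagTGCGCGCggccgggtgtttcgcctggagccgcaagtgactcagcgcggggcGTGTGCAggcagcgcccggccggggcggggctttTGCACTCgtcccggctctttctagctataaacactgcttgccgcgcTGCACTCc
SLC30A1: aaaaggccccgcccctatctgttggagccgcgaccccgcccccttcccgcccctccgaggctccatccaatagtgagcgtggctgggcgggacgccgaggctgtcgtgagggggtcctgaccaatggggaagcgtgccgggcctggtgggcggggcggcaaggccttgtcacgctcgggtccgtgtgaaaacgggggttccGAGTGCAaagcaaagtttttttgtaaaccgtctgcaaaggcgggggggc
In these 250 bases MT1X holds 4 cores and MT2A holds 7, and SLC30A1 holds 1 with another past its start. RefSeq starts can differ from those of the deposited annotation.

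**Figure D4:**
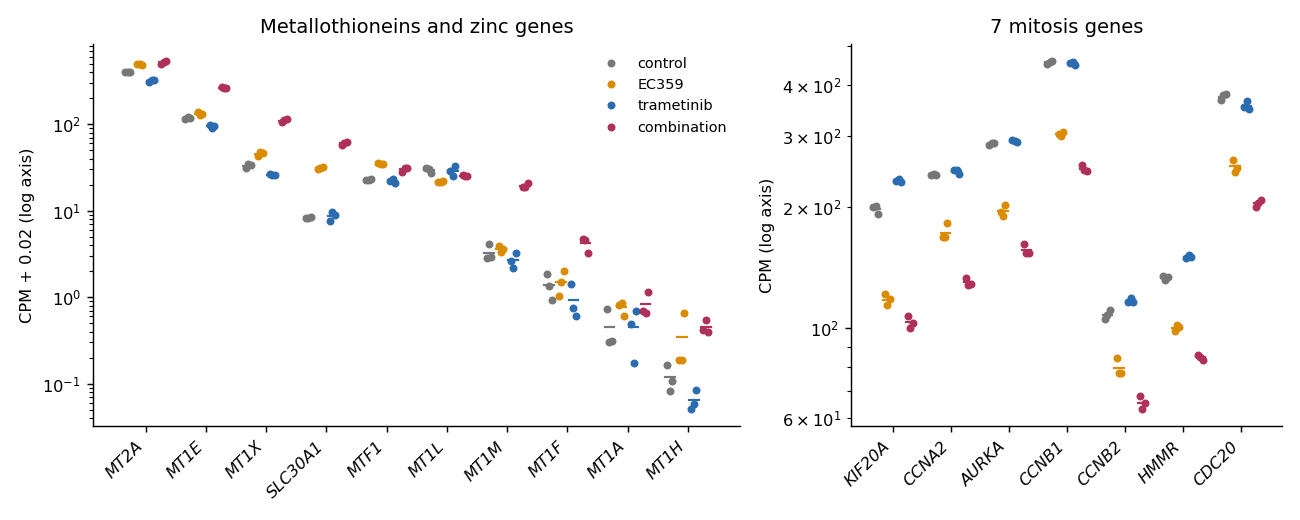
Levels of the 10 tested metallothionein and zinc genes (left, CPM plus 0.02) and of 7 mitosis genes (right, CPM) in all 12 libraries, on log axes. Each point is 1 library and each bar the mean of 3 libraries. MT1X, MT1E, MT1M and SLC30A1 are highest in the combination, and the 7 mitosis genes are lowest there.

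The integrated stress response, in which phosphorylated eIF2 alpha slows translation and ATF4 is made, was represented by 45 members, of which 39 were tested. Of these 28 rose (71.8%, background 35.3%), 14 of them at least 2-fold (background 6.12%), 6 fell (15.4%, background 32.9%) and 5 did not pass, with a median of 0.59 against 0.70 with EC359 alone. PPP1R15A, the phosphatase subunit that restores translation, went from 108, 102 and 108 CPM to 899, 916 and 887 CPM (log2 fold change 3.09, SE 0.03, edgeR adjusted p = 1.6e-62). PSPH, an enzyme of serine synthesis, and EIF2AK4, the kinase that senses uncharged tRNA, fell by 0.59 and 0.51. The element TGATGNAA, which C/EBP and ATF factors bind, lay in 9 of 32 windows of the list (28.1%) against 1.62% of all windows. The cAMP response element TGACGTCA lay in 3.21% of all windows, 5.57% of those of upregulated and 1.69% of those of downregulated genes. In the list it lay in 1 of 32 windows (3.12%), that of PPP1R15A, so it was no more frequent there than in all windows. The element is shown in capitals in the 250 bases before PPP1R15A, chr19:48872171-48872420 (plus strand).
PPP1R15A: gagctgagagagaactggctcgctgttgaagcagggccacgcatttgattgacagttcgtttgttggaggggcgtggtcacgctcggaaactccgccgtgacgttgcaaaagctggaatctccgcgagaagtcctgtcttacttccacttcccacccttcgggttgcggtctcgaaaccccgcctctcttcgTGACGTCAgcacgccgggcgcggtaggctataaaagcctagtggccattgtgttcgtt
The element begins 58 bases before the RefSeq start. Of the 25 genes of the unfolded protein response of the endoplasmic reticulum, 14 rose (56.0%, background 35.3%) and 6 fell (background 32.9%) with a median of 0.11, which turned to -0.06 with library totals as the scale. DNAJB9 and HERPUD1, which act in the disposal of misfolded proteins, rose by 2.17 and 1.34, while the folding factors PDIA4 and MANF fell by 0.39 and 0.32.

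Genes of the oxidative stress response and of iron handling rose in part. Of 35 NRF2 antioxidant genes tested, 26 rose (74.3%, background 35.3%) and 3 fell (8.57%, background 32.9%) with a median of 0.38 against 0.40 with EC359 alone. MAFG, a partner of NRF2 on DNA, rose by 2.52, while the carbonyl reductases CBR3 and CBR1 fell by 0.84 and 0.34. Of 32 ferroptosis and iron genes 19 rose (59.4%) and 6 fell (18.8%) with a median of 0.34. SAT1, which catabolizes polyamines, rose by 1.95, while IREB2, an iron regulatory protein, and DHODH, which reduces ubiquinone in mitochondria, fell by 0.73 and 0.64. Of 38 autophagy and lysosome genes 24 rose (63.2%) and 8 fell (21.1%). SQSTM1, the p62 receptor of selective autophagy, went from 502, 504 and 515 CPM to 1498, 1558 and 1565 CPM.

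Among 17 members of the BCL2 family, regulators of cell death, 7 rose (41.2%, background 35.3%), 3 fell (17.6%, background 32.9%) and 7 did not pass. BBC3, the pro-apoptotic PUMA, went from 5.77, 4.48 and 4.19 CPM to 47.7, 50.8 and 48.3 CPM (log2 fold change 3.34, SE 0.07, edgeR adjusted p = 9.4e-40), and PMAIP1, the pro-apoptotic NOXA, from 30.8, 31.0 and 30.9 CPM to 112, 115 and 104 CPM. MCL1, an anti-apoptotic member that NOXA binds, rose as well, from 163, 166 and 161 CPM to 378, 386 and 391 CPM. BCL2L1, the gene of anti-apoptotic BCL-XL, fell from 102, 101 and 101 CPM to 56.4, 59.5 and 57.7 CPM (log2 fold change -0.80, SE 0.03, edgeR adjusted p = 2.1e-29). The other falls were in the pro-apoptotic BAK1 and BOK, with log2 fold changes of -0.29 and -0.28. The remaining rises were in the pro-apoptotic HRK (3.12) and BCL2L11 (0.74) and the anti-apoptotic BCL2 (0.36) and BCL2L2 (0.18), so both kinds moved in both directions. Of 23 death receptor and caspase genes 10 rose (43.5%, background 35.3%) and 13 fell (56.5%, background 32.9%). The decoy receptor TNFRSF10D and the death receptor TNFRSF10B rose by 2.52 and 1.2, and the adaptor FADD and the initiator caspase CASP8, which act below death receptors such as TNFRSF10B, fell by 1.31 and 1.06.

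Mitosis genes were lower almost throughout. Of 35 mitosis genes 30 fell (85.7%, background 32.9%), none rose and 5 did not pass by edgeR's test (also 0 higher at an unadjusted p under 0.05 and by DESeq2), with a median of -0.47 against -0.19 with EC359 alone and 0.07 for trametinib against control. The interaction was lower for 24 of the 35 (background 15.9%) and higher for 0 by edgeR, 0 at an unadjusted p under 0.05 and 0 by DESeq2. Without trametinib replicate 1, 1 mitosis gene was higher. KIF20A, a kinesin of cytokinesis, fell from 231, 234 and 230.0 CPM to 107, 100.2 and 103 CPM (log2 fold change -1.16, SE 0.03, edgeR adjusted p = 2.9e-39). CCNA2, the gene of cyclin A2, fell by 0.91, AURKA by 0.90 and CCNB1 by 0.87, and most of these falls were below 2-fold. Of 43 DNA replication genes 16 rose (37.2%, background 35.3%) and 19 fell (44.2%, background 32.9%), with a median of -0.00.

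Regulators of the G1 phase and p53 targets included larger changes. CDKN1A, the p21 inhibitor of cyclin-dependent kinases and a p53 target, went from 15.5, 14.7 and 16.9 CPM to 169, 168 and 177 CPM (log2 fold change 3.45, SE 0.04, edgeR adjusted p = 9.6e-56), while CDKN2C, the p18 inhibitor, fell from 57.5, 54.0 and 56.9 CPM to 15.7, 14.8 and 16.0 CPM. RB1, the retinoblastoma gene, rose by 1.97 and E2F5 fell by 0.92. Of 24 direct p53 targets 15 rose (62.5%, background 35.3%) and 4 fell (16.7%, background 32.9%) with a median of 0.31, PLK2 and XPC being the named falls (-1.18 and -0.73).

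Genes of ribosome production were lower more often than the background. Of 107 genes of RNA polymerase I and ribosome assembly, 22 rose (20.6%, background 35.3%) and 65 fell (60.7%, background 32.9%). Only 5 of the 107 fell at least 2-fold (background 5.48%), so falls of that size were no more frequent than over all genes. The median was -0.20, against -0.16 with EC359 alone. RRS1, a ribosome assembly factor, fell from 69.6, 68.9 and 70.3 CPM to 22.3, 22.1 and 20.8 CPM, a log2 fold change of -1.68. TAF1D, a subunit of the RNA polymerase I selectivity factor, rose by 1.83. RRN3, the RNA polymerase I initiation factor, fell by 1.63 with trametinib and rose by 1.91 without it at 1.04 to 4.90 CPM in the libraries compared here, but it lies on 2 contigs. Of 77 mitochondrial ribosomal protein genes 56 fell (72.7%, background 32.9%) and 6 rose (7.79%, background 35.3%) with a median of -0.23. None of them, 0, changed 2-fold by edgeR, also at an unadjusted p under 0.05 and by DESeq2. With EC359 against control the median was -0.27 and 63 of the 77 were lower (background 30.3%). The interaction was higher for 18 (background 14.4%) and lower for 14 (background 15.9%), so the fall was not larger as a group with trametinib present. The E-box CACGTG lay in 30 of 95 ribosome assembly windows (31.6%) against 10.2% of all, and the ETS element CCGGAAGT in 22 (23.2%) against 8.45% of all, 12% of the downregulated and 2.61% of the upregulated genes.

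Of 14 genes of MYC, MAX partners and MondoA targets 8 rose (57.1%, background 35.3%), 4 fell (28.6%, background 32.9%) and 2 did not pass. MXD1, a repressor that competes with MYC for MAX, went from 3.74, 3.08 and 3.86 CPM to 36.6, 36.2 and 31.6 CPM (log2 fold change 3.28) and MNT, another, rose by 1.29. TXNIP, a MondoA target that restrains glucose uptake, fell by 2.15 and MYCL by 1.52. Of 59 MYC targets 16 rose and 29 fell (49.2%, background 32.9%) with a median of -0.07, and the list's own falls AIMP2 and PPAN were at -0.81 and -0.80 while HK2, a hexokinase, rose by 2.42.

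Of 30 cholesterol and fatty acid synthesis genes 18 rose (60.0%, background 35.3%) and 4 fell (13.3%, background 32.9%), and the median of 0.27 compares with 0.55 with EC359 alone, with 11 interactions lower (background 15.9%) and 2 higher (background 14.4%). INSIG1, which holds back sterol synthesis, rose by 2.74. Of 21 receptor tyrosine kinases and EGFR ligands 15 rose (71.4%) and 3 fell (14.3%), read against the same background. HBEGF, an EGFR ligand, went from 18.3, 18.5 and 19.2 CPM to 158, 156 and 159 CPM, an interaction of 1.12 (edgeR adjusted p = 6.2e-23), and AREG, another, rose by 3.17, while ERBB3 and ERBB2 fell by 0.40 and 0.35. Of 47 histone lysine methyltransferases and demethylases 28 rose (59.6%) and 10 fell (21.3%), led by KDM6B (2.85) and KDM3A (1.68), with KDM4D lowest (-1.22). Interferon and antigen presentation genes, with 10 of 34 higher and 7 lower, were below the background in both directions, although IRF1 rose by 1.38 and IFIT1 fell by 1.05.

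Zinc finger genes of chromosome 19, most of which encode KRAB repressors, formed the largest list that fell. Of 253 members 236 were tested, of which 154 fell (65.3%, background 32.9%) and 32 rose (13.6%, background 35.3%). Of those that fell, 56 did so at least 2-fold (background 5.48% of all genes). The median was -0.55 against -0.42 with EC359 alone. ZNF30 fell from 3.96, 4.29 and 3.83 CPM to 0.319, 0.522 and 0.676 CPM, a log2 fold change of -2.97, and ZNF253 by 2.61. ZNF114 rose from 62.5, 62.7 and 62.8 CPM to 147, 148 and 151 CPM. Many of these genes are similar in sequence and share reads.

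Replication-dependent histone genes, whose mRNAs normally end without a poly(A) tail and are poorly captured in poly(A) libraries such as these, were at low levels. Of 73 members 43 were tested. Of these 19 rose (44.2%, background 35.3%), 16 at least 2-fold (background 6.12%), 2 fell (4.65%, background 32.9%) and 22 did not pass. The median was 0.56 against 0.05 with EC359 alone. By the interaction, 5 of the 43 had a higher effect with trametinib (background 14.4%) and 0 a lower one by edgeR, or 1 at an unadjusted p under 0.05. Most members thus had no interaction past the threshold. Their summed level was 65.2 to 69.9 CPM with trametinib and 88.5 to 95.8 CPM in the combination. HIST1H4C went from 1.34, 1.14 and 1.30 CPM to 12.8, 15.4 and 12.5 CPM, with an interaction of 3.79 (SE 0.70, edgeR adjusted p = 0.00363), and HIST1H4E from 0.531, 0.646 and 0.552 CPM to 1.72, 2.53 and 1.95 CPM. Requiring at least 10 counts in every library left 9 higher members. The capture of transcripts without a tail was not tested.

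**Figure D5:**
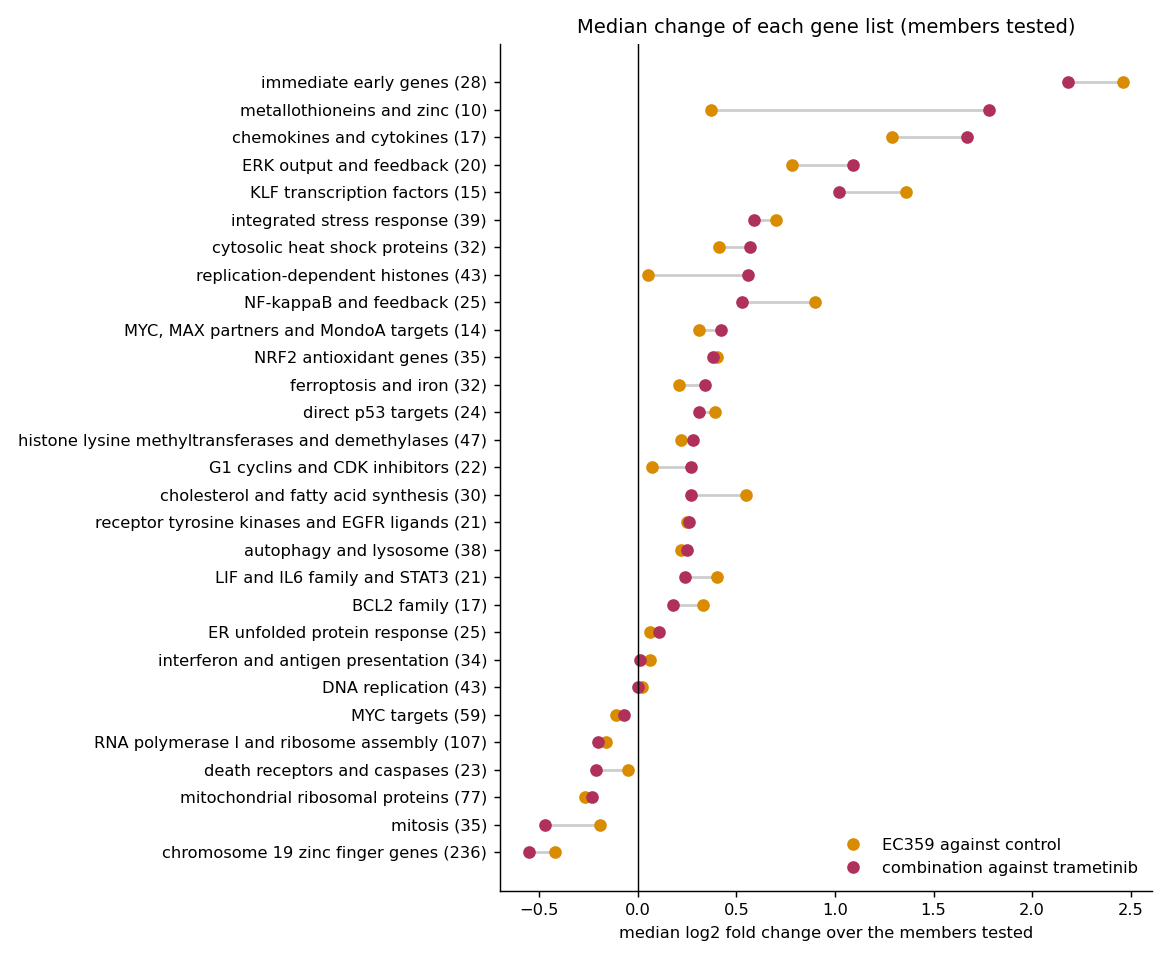
Median log2 fold change over the tested members of each gene list other than cell type markers (number in parentheses) for the combination against trametinib (red) and for EC359 against control (orange), joined by a line. The lists shown range from immediate early genes (2.18) to chromosome 19 zinc finger genes (-0.55), and the widest gap between the points shown is that of the metallothioneins and zinc genes (1.78 and 0.37).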

How the data were processed

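Per the labels, polyadenylated RNA of OVCAR8 cells was made into stranded libraries and read from both ends. The submitters' processing notes name bcl2fastq, HISAT2 and featureCounts. Per the file headers, the authors ran featureCounts 1.5.0-p1 on read pairs with a minimum mapping quality of 2, strand by strand, over the exons of each gene in the UCSC annotation of hg38, and let reads of several placements or genes count as fractions. So the deposited values are estimated counts that were not normalized, of which 12.38% to 15.06% per library were not whole, and they were rounded to whole numbers. Division lowers precision for copies and gene families. The limits of depth given below cover counting error only, and SE and p-values cover counting error and the spread between libraries.

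The filter on low counts was edgeR's filterByExpr (edgeR 4.0.16, R 4.3.3, minimum count 10, minimum total 15), and 6365 genes had no count. A robust quasi-likelihood model with TMM factors was fitted to the 12 libraries in 4 groups, and p-values were adjusted by Benjamini-Hochberg. Calls required an adjusted p under 0.05 and a change of 2-fold or more, and the interaction had no fold limit. The biological coefficient of variation was 3.95%. On data simulated for 14698 genes, the combination against trametinib found 200 of 200 changed genes with 0 false calls, and the interaction found 200 with 5 false calls. The simulation gave all genes the same spread. It changed only genes with many counts, by a fixed size up or down, and in the combination group alone. It therefore checks that the fit runs as coded and cannot give the error rate in the real libraries.

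The members and gene lists were chosen with earlier results of these data known. Named genes were the 12 largest rises and falls among called genes of at least 10 CPM with libraries apart, the 2 largest each way per list with an adjusted p under 0.05 and at least 1 CPM, 6 genes of the drugs' pathways, and the 4 largest interactions each way among called genes of at least 10 CPM. Further members of the LIF, ERK, metallothionein, BCL2 and mitosis lists were named after their values were seen. A gene of the cholesterol list is counted there but not reported here by name. Of the list members GARS1, MARS1 and SARS1 were not matched to the files. Promoter windows of RefSeq, build GRCh38.p14, run from 250 bases before to 50 after a gene's start, and 11387 of 14865 genes matched. Alternatives were DESeq2 1.42.0, its size factors, total counts, other filters, only the groups compared, a replicate block, glmTreat against 1.5-fold, and each library left out.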

Additional observations from a re-analysis of the deposited data

Results flagged for a closer look

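The effect of EC359 differed with and without trametinib, by the interaction in edgeR's fit, for many genes: it was higher with trametinib for 2145 and lower for 2361. Among the genes chosen by the naming rule, 20 had an interaction of at least 1 on the log2 scale in either direction at an adjusted p under 0.05. The interactions were positive for RGL2 (5.46), HIST1H4C (3.79), MT1M (2.71), DUSP6 (2.17), ANKRD1 (1.70), HIST1H4E (1.70), MAFF (1.37), KLF4 (1.30), AREG (1.18), FOS (1.14) and HBEGF (1.12). They were negative for RRN3 (-3.54), RRAD (-1.40), ZNF30 (-1.29), SLFN11 (-1.18), CPT2 (-1.18), S1PR5 (-1.15), ZSCAN32 (-1.08), HPS6 (-1.07) and CCDC71 (-1.05).

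MT1X (1.62), MT1E (1.35) and CHAC1 (-1.18), named outside the rule, also passed. Leaving out each library in turn kept the sign in all 20 chosen by the rule. The largest edgeR adjusted p among these fits was 0.0773 for RGL2 and 0.0809 for AREG, which lost the call, and 0.0303 for FOS. For MT1M the interaction lay between 2.52 and 2.88 and for ANKRD1 between 1.68 and 1.72. RGL2 and RRN3 lie on several contigs, and the interactions of DUSP6, FOS, AREG and HIST1H4E involve libraries with few reads.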

How the results depend on the processing

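The counts of the combination against trametinib kept within 1.5 times of 909 and 814 in all but 1 alternative. Without a minimum fold change, 5241 genes were higher and 4895 lower, and for EC359 against control 4576 and 4501. Requiring at least 10 counts in every library left 236 genes lower with EC359 against control, since 13470 genes were then tested. Leaving out 1 library gave 923 to 945 genes higher and 801 to 822 lower in the combination against trametinib, 619 to 642 and 382 to 434 with EC359 against control, and 1898 to 2065 and 2064 to 2367 for the interaction. Of the calls, 844 to 864 of those higher and 713 to 759 of those lower were shared with each such fit. DESeq2 gave 896 and 786 calls. Total counts as the scale moved the share of higher calls from 52.8% to 38.6% in the combination against trametinib and from 60.0% to 44.6% with EC359 against control, reversed the median of the unfolded protein response list to -0.06 and STAT3 to -0.11, and raised the number of lower members, for example to 12 in the former list.

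Of 1750 values of named genes under the alternatives 34 lost their call, and these concerned CCL28, CUTA, IKBKG, LIFR, MT1L, PDGFRB, RGL2, SOCS2 and WT1. With the replicate block 906 genes were higher and 812 lower, and for EC359 against control 621 and 414. The interaction gave 2114 and 2317 under the block. Of the named genes, CUTA lost its call under it (edgeR adjusted p = 0.0577). Deviations of combination and trametinib libraries with the same number correlated at 0.153, 0.0659 and 0.112, against -0.137 to 0.0253 for other numbers, so every library correlated best with its own number, but the labels do not say that numbers mark a shared culture or day.

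Limits of depth are 3 reads per library, 0.0936 to 0.120 CPM in the libraries compared, and few-read genes such as DUSP6 and FOS with trametinib have imprecise folds. The 3 libraries a group would allow no p under 0.1 in an exact permutation test of 1 gene alone, so calls rest on the spread shared across genes. Protein levels and signaling were not analysed here, and 1 cell line and 1 time were measured.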

Other observations

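CHAC1, an ATF4 target that degrades glutathione, was looked at after its values were seen. It measured 5.74, 5.05 and 6.52 CPM with trametinib and 6.11, 5.22 and 5.64 CPM in the combination, which overlap (log2 fold change -0.03, edgeR adjusted p = 0.827). Without trametinib it went from 3.64, 5.07 and 5.0 CPM in control to 11.5, 8.86 and 10.2 CPM with EC359, a log2 fold change of 1.15, and the interaction was -1.18 (SE 0.18, edgeR adjusted p = 4.3e-07).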
